A study of Homo sapiens with 4 samples.

Results

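The genes described here are the vascular endothelial growth factor ligands VEGFA, VEGFB, VEGFC and PGF, the VEGF receptors KDR and FLT1, the neuropilins NRP1 and NRP2, and the fibroblast growth factor FGF2, which is an angiogenic factor of another family. They were taken by name: 19 of the 48803 probes of the array carry 1 of these 9 symbols in the array's probe-to-gene table. RNA came from the established human pancreatic carcinoma line MIA PaCa-2 and was labelled with biotin and hybridised to Illumina WG-6 v3 bead chips, 1 array per sample. The 2 untreated control samples were set against 2 samples given the inflammatory cytokine IL-1β at 2 ng/ml for 36 h, and all 4 were grown in high-glucose medium with serum. The comparison asks which of these transcripts differ after IL-1β. The labels do not name separate cultures within a group, so the p-values rest on a spread between samples that may be only technical.

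VEGF ligands are secreted dimers that act on receptor tyrosine kinases, best known from blood and lymphatic endothelium. VEGFA binds FLT1 and KDR, VEGFB and PGF bind FLT1, and VEGFC binds KDR and FLT4 and is known for lymphatic growth. Neuropilins are coreceptors without a kinase domain that bind VEGF ligands and class 3 semaphorins, whereas FGF2 acts through FGF receptors together with heparan sulfate. Carcinoma cells are a known source of these ligands for nearby vessels, and IL-1 signals through NF-κB and AP-1, which are known to act on growth factor genes.

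To show the regulatory sequence of the detected ligands, the 250 bases before the gene start are given for the 3 of 4 detected members that RefSeq's promoter table (GRCh38.p14) holds, 5′ to 3′ on the gene's strand. Capitals mark the GC box, GGGCGG or CCGCCC, the element bound by SP1.
VEGFC, chr4:176792923-176793172, minus strand: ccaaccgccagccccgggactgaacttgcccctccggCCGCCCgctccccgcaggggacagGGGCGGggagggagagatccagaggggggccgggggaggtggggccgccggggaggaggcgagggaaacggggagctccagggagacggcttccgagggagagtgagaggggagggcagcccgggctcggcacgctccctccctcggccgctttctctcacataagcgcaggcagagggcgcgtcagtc
FGF2, chr4:122826581-122826830, plus strand: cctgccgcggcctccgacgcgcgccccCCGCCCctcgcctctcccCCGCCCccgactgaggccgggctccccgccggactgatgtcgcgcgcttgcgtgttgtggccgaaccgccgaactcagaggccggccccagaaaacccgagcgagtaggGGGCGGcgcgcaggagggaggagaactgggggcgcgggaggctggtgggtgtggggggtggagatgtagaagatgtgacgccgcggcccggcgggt
VEGFB, chr11:64234334-64234583, plus strand: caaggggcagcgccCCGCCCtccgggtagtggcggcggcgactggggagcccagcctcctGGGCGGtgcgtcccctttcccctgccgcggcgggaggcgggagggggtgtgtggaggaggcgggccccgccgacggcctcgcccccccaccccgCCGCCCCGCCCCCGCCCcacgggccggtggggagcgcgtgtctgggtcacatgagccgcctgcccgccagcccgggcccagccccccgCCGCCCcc

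These windows were rich in G and C, at 74.0% for VEGFC, 75.2% for FGF2 and 82.8% for VEGFB. Counting both strands, the GC box occurred 2 times in VEGFC, 3 times in FGF2 and 6 times in VEGFB, with 2 of the VEGFB matches sharing a base. Of 35114 windows of this length in the table, 42.6% held a GC box. The hypoxia response core, ACGTG or GCGTG, occurred 1 time in each of the 3 windows and in 43.2% of all windows. The NF-κB consensus occurred 1 time, in VEGFC at positions -120 to -111 from the start, and 9.96% of all windows held it. The AP-1 element, TGACTCA or TGAGTCA, occurred 0 times in the 3 windows and was found in 4.2% of all. These matches describe letters only.

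The arrays were alike in quality, with between 12740 and 13157 probes detected at a detection p under 0.01. A detection p compares a probe with the array's negative control beads. Control arrays averaged 527 and 549 in raw intensity and IL-1β arrays 482 and 449. Values were therefore compared after background correction and quantile normalization on a log2 scale. The tests cover 13152 probes detected on at least 2 arrays, whose median log2 difference was 0.00 and whose median SE was 0.111. The epithelial keratins KRT8, KRT18 and KRT19 and the mucin MUC1 were detected, while EPCAM and CDH1 were not detected on any array. Of 10 endothelial markers 7 were not detected on any array, among them VWF, TEK and TIE1, and 1, CDH5, was tested, at -0.01 ± 0.11 (log2 difference ± SE). Their summed normalized intensity was 358 to 403 in the controls and 337 to 357 with IL-1β. Of 5 fibroblast and 4 leukocyte markers named in the probe table, 4 and 3 were not detected on any array; COL1A2 and CD14 were tested, at -0.24 and -0.08. The summed level of 6 epithelial markers was 17019 to 17839 in the controls and 14414 to 15354 with IL-1β, that of the fibroblast markers 4934 to 5079 against 4178 to 4204, and that of the leukocyte markers 156 to 162 against 147 to 149. All these sums include the probes of undetected genes, so they do not describe whole marker sets. The endothelial, fibroblast and leukocyte sets had 1 tested gene each, and the epithelial set 4 of 6. Of those 4, KRT18 was the brightest, at a control mean of 13.74 on the log2 scale, against 10.26 for KRT8. The part of these markers in the differences of the members was not tested.

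MIA PaCa-2 cells carried measurable transcripts of 4 of the 9 genes, all of them secreted ligands: VEGFA, VEGFB, VEGFC and FGF2. The 5 others, the receptors KDR and FLT1, both neuropilins and PGF, were not detected on any array by any of their 9 probes. After IL-1β the VEGFC probe was 1.43-fold lower and the FGF2 probe ILMN_2105919 1.21-fold lower. Both detected VEGFA probes and 1 of the 2 detected VEGFB probes were 1.26-fold to 1.34-fold higher after normalization. No member passed an adjusted p of 0.05 in limma, nor did any of the 13152 probes (0%), while 2437 probes (18.5%) had an unadjusted p under 0.05.

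**Figure D1:**
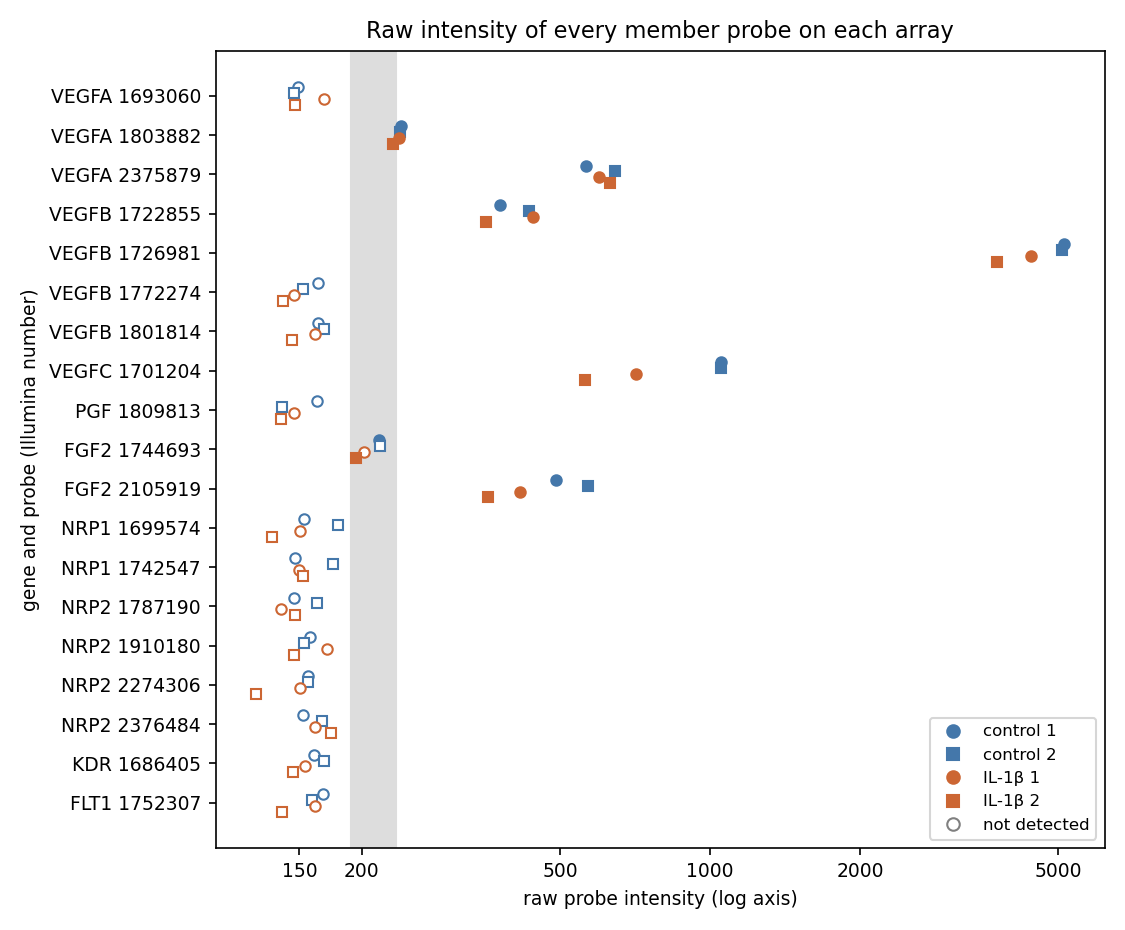
Raw probe intensity (log axis) of all 19 member probes on the 4 arrays; filled symbols are detected at a detection p under 0.01 and open symbols are not. The grey band spans the lowest detected intensities of the 4 arrays, 190.1 to 234, and the probes of PGF, NRP1, NRP2, KDR and FLT1 all lie to its left.

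Of the 19 probes, 7 passed the filter on detection and were tested. Of these, 3 were higher with no overlap between the groups and 2 were lower with no overlap, against 25.5% and 25.2% of all tested probes. The same 3 and 2 had an unadjusted p under 0.05, against 9.25% and 9.28% of all tested probes. No member was at least 1.5-fold apart with no overlap, which 1.52% of tested probes were in the higher direction and 1.53% in the lower. With 2 arrays against 2, an exact permutation test of 1 probe cannot fall below 0.33, so none was run.

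VEGFC had the largest difference of the members. Its single probe, ILMN_1701204, read raw intensities of 1052 and 1049.9 in the controls and 709 and 562 with IL-1β, with a detection p of 0 on all 4 arrays. Both IL-1β arrays lay well below the controls, which were nearly equal. On the normalized log2 scale the values were 9.71 and 9.60 in the controls and 9.28 and 9.01 with IL-1β, or 9.66 ± 0.08 against 9.14 ± 0.19 (mean ± SD, 2 arrays each). The log2 difference was -0.51 ± 0.13 (SE), a 1.43-fold lower level (95% confidence interval 1.14 to 1.78), with adjusted p = 0.152 in limma. By p-value this probe ranked 733 of 13152. In this bulk RNA, fewer cells with the transcript and less transcript per cell cannot be told apart. The probe was lower under all 16 alternatives, from -0.76 to -0.37, and adjusted p ran from 0.0101 to 0.480. Changes of filter, variance model or block alone, and averaging over its single probe, could not alter the difference itself. VEGFC passed with no background correction (adjusted p = 0.0173), with median scaling over all probes (0.0429) and under eBayes with trend and robust variance (0.0101). Median scaling over all probes moved the median of all tested probes by -0.22, and the lowest VEGFC value, -0.76, carries that shift.

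The authors' deposited table of averages lists 1464 probes and comes from the same arrays, so it is not a separate measurement. VEGFC was the only 1 of the 9 genes in it, at 981 for the controls and 683 for IL-1β. In the authors' deposited score table it had a score of -37.7, and 446 of 1440 genes had a score as low or lower. That score's formula, not given in the sources used here, leaves only its sign and rank to read. Of the 1464 probes in the table of averages, 1236 were lower with IL-1β.

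FGF2, the heparin-binding growth factor, was read by 2 tested probes. The first, ILMN_2105919, had raw intensities of 492 and 568 in the controls and 415 and 359 with IL-1β, again with no overlap. Its normalized values were 8.42 ± 0.09 in the controls and 8.14 ± 0.09 with IL-1β (mean ± SD), with single arrays at 8.35 and 8.49 against 8.20 and 8.08. The log2 difference was -0.28 ± 0.11 (SE), 1.21-fold lower (95% confidence interval 1.01 to 1.46), with adjusted p = 0.258 in limma. Under the 16 alternatives adjusted p ran from 0.0603 to 0.614. This probe was lower each time, though changes of filter, variance model or block alone could not alter its difference. The processing moved its size: the log2 difference was -0.51 with median scaling over all probes, which moved the median of all tested probes by -0.22, and -0.12 when both probes were averaged.

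The other FGF2 probe, ILMN_1744693, sat at the detection limit, with raw intensities of 217 and 218 in the controls and 202 and 195 with IL-1β. It was detected on 1 of 2 arrays in each group. Its normalized values of 6.16 and 5.86 overlapped those with IL-1β, 5.94 and 6.16, and the log2 difference was 0.04 ± 0.14 (SE; adjusted p = 0.922). Its sign turned with median scaling over all probes, in the authors' series matrix values, and without control replicate 2 or IL-1β replicate 2. The 2 FGF2 probes differed in their response by 0.32 on the log2 scale (95% confidence interval -0.15 to 0.78). In the fit over 2793 pairs of tested probes of 1 gene, the adjusted p of this pair was 0.631.

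**Figure D2:**
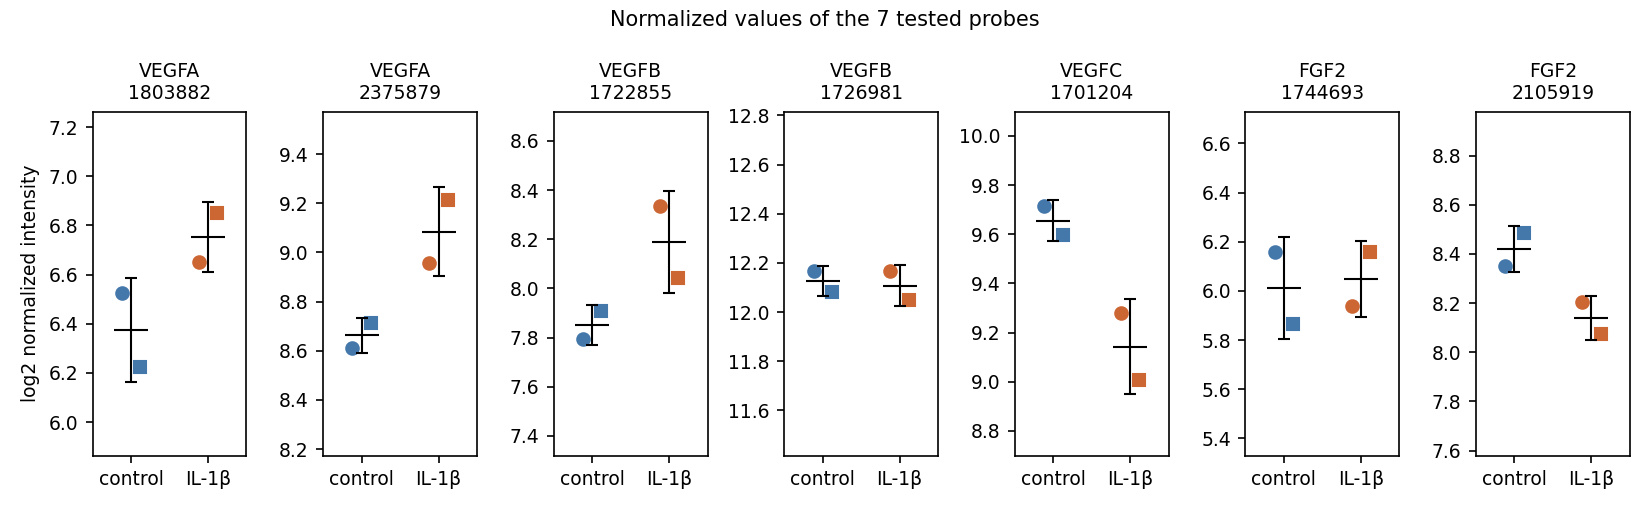
Normalized log2 intensity of the 7 tested probes, with circles for replicate 1, squares for replicate 2, and black marks for the mean ± SD of the 2 arrays of a group; each panel spans the same log2 range. VEGFC and the FGF2 probe ILMN_2105919 sit lower with IL-1β without overlap, and both VEGFA probes and the VEGFB probe ILMN_1722855 sit higher without overlap.

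VEGFA, the main angiogenic ligand and a known target of hypoxia-inducible factors, was detected by 2 of its 3 probes. The first, ILMN_2375879, had raw intensities of 563 and 645 in the controls and 599.9 and 630.4 with IL-1β. On this raw scale the groups overlapped, and the IL-1β mean was 102% of the control mean on arrays whose overall mean was lower. After normalization the values were 8.61 and 8.71 in the controls and 8.96 and 9.21 with IL-1β, with no overlap. The log2 difference was 0.42 ± 0.12 (SE), 1.34-fold higher (95% confidence interval 1.08 to 1.66), with adjusted p = 0.183 in limma. Changes of filter, variance model or block alone could not alter this difference. The probe was higher under all 16 alternatives, from 0.18 to 0.55, with adjusted p from 0.0399 to 0.528. It passed with no background correction (adjusted p = 0.0489) and with trend and robust variance (0.0399). The lowest value, 0.18, came with median scaling over all probes and carries that scaling's shift of -0.22.

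The second VEGFA probe, ILMN_1803882, read 239 and 238 in the controls and 237 and 231 with IL-1β, close to the lowest detected intensity of each array, which was 214 and 234 in the controls and 207 and 190.1 with IL-1β. Raw values were thus nearly equal on all 4 arrays. Its normalized values were 6.53 and 6.23 in the controls and 6.65 and 6.85 with IL-1β, and the log2 difference was 0.38 ± 0.14 (SE; adjusted p = 0.253). That difference was 0.15 with no background correction, 0.18 with median scaling over all probes and 0.22 without control replicate 2. The 2 detected VEGFA probes differed in their response by -0.04 (95% confidence interval -0.46 to 0.37; adjusted p = 0.957 over the pairs), and this sign turned with both median scalings, in the authors' series matrix values and without control replicate 1. Averaged over both probes, VEGFA was higher by 0.40 ± 0.11 (SE; adjusted p = 0.159). The third probe, ILMN_1693060, was not detected, with raw intensities of 149 and 147 in the controls and 168 and 147 with IL-1β.

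VEGFB, a ligand of FLT1, was detected by 2 of its 4 probes. On ILMN_1726981, raw intensities were 5139 and 5078 in the controls and 4406 and 3767 with IL-1β. After normalization the groups overlapped, at 12.17 and 12.08 against 12.17 and 12.05, and the log2 difference was -0.02 ± 0.10 (SE; 95% confidence interval -0.27 to 0.23; adjusted p = 0.946). The sign of this value turned with median scaling over tested probes and without control replicate 1 or IL-1β replicate 2.

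The VEGFB probe ILMN_1722855 read 379 and 434 in the controls and 441 and 354 with IL-1β, so the raw groups overlapped. Its normalized values were 7.79 and 7.91 in the controls and 8.34 and 8.04 with IL-1β, 1.26-fold higher (95% confidence interval 1.01 to 1.59; adjusted p = 0.262). The log2 difference of 0.34 ± 0.13 (SE) was 0.10 with median scaling over all probes, 0.22 with no background correction and 0.19 without IL-1β replicate 1. The 2 VEGFB probes differed in their response by 0.36 ± 0.16 (SE; 95% confidence interval -0.02 to 0.73; adjusted p = 0.474 over the pairs). Of the 2793 pairs 0 passed an adjusted p of 0.05 (0%) and 307 had an unadjusted p under 0.05 (11%).

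**Figure D3:**
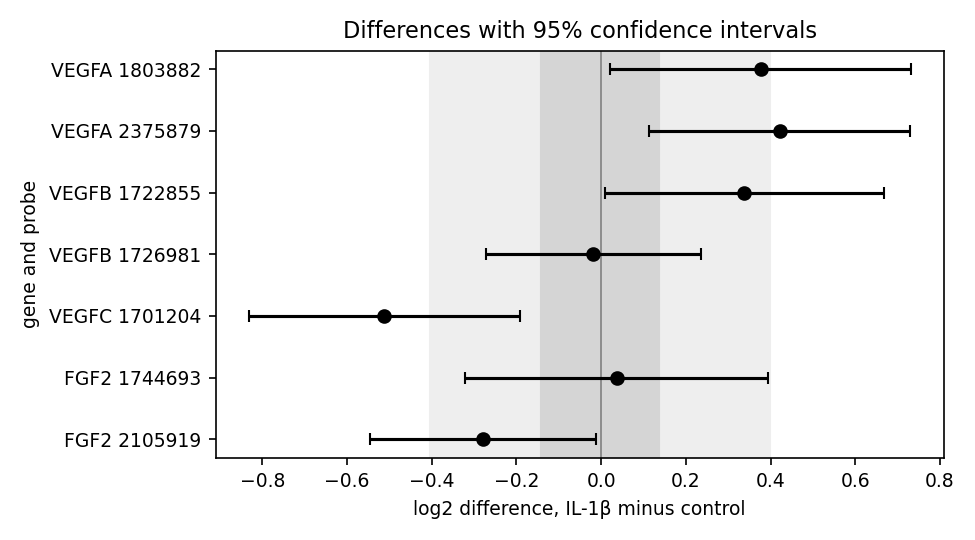
Log2 difference, IL-1β minus control, of the 7 tested probes with 95% confidence intervals from limma; the dark and light bands hold the quartile range and the range from the lower to the upper 5% tail of all 13152 tested probes. VEGFC, at -0.51, and the VEGFA probe ILMN_2375879, at 0.42, lie beyond the light band, which runs from -0.40 to 0.40.

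**Figure D4:**
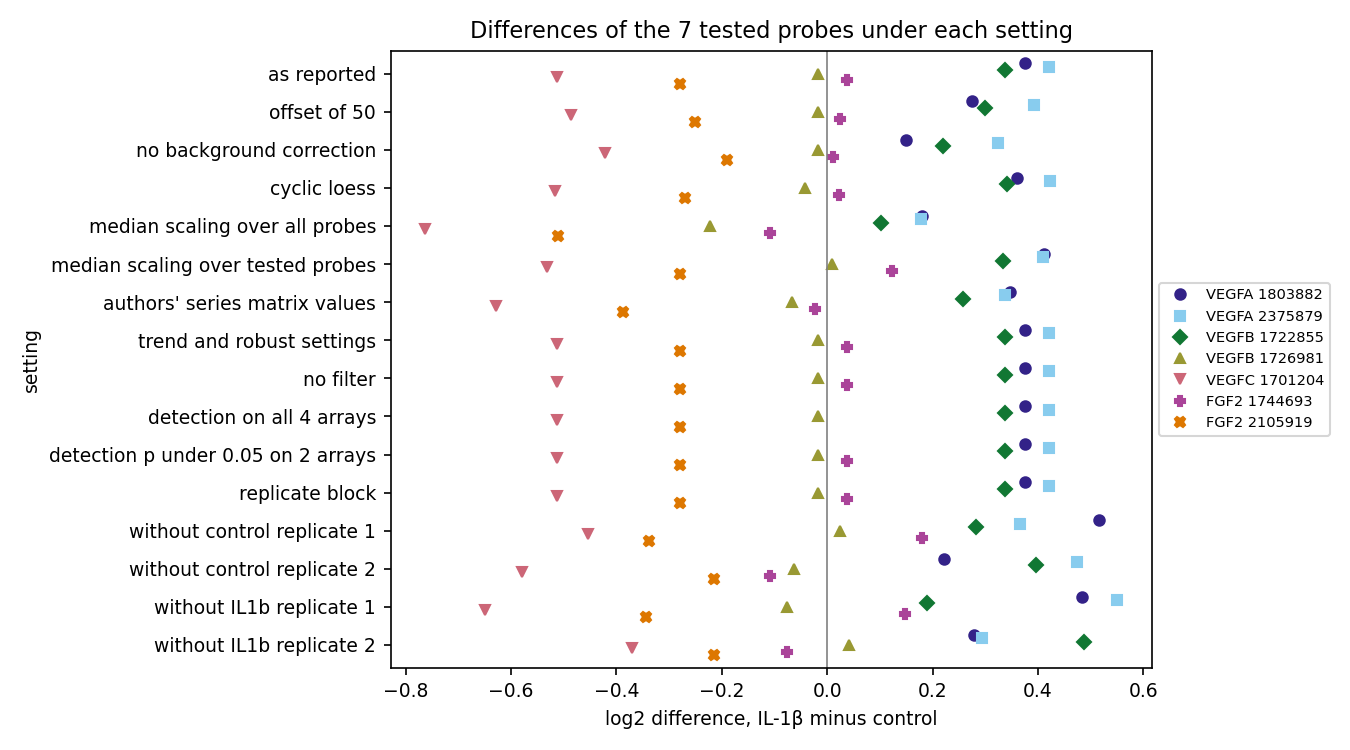
Log2 difference, IL-1β minus control, of the 7 tested probes as reported and under the alternatives other than averaging probes; each probe has its own symbol. VEGFC lies below 0 under each of these, from -0.76 to -0.37, while FGF2 ILMN_1744693 and VEGFB ILMN_1726981 lie on both sides of 0. Changes of filter, variance model or block alone cannot move a point.

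The undetected members are given per array as raw intensities. PGF, a placental ligand of FLT1, read 162 and 138.5 in the controls and 146 and 138 with IL-1β, with detection p from 0.274 to 0.997. The 2 remaining VEGFB probes, ILMN_1772274 and ILMN_1801814, read 164 and 153, and 163 and 168, in the controls, and 147 and 139, and 161 and 145, with IL-1β. All these values lay under the lowest detected intensity of their array.

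The receptors KDR and FLT1 were at background as well. KDR, the main signalling receptor for VEGFA, read 161 and 168 in the controls and 154 and 145 with IL-1β, with detection p from 0.340 to 0.640. FLT1, the receptor shared by VEGFA, VEGFB and PGF, read 167 and 159 in the controls and 161 and 138 with IL-1β, with detection p of 0.158 or higher. Each was read by 1 probe, so a transcript form that this probe misses was not measured. FLT4, the other VEGFC receptor, is not among the 9 genes and is named here after its values were seen. Its tested probe, ILMN_1651296, read 359.9 and 316 in the controls and 345 and 301 with IL-1β. The groups overlapped, at a log2 difference of 0.30 ± 0.19 (SE; adjusted p = 0.464 in limma).

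The neuropilins showed no detected signal on any of their 6 probes. NRP1, the coreceptor for VEGFA and SEMA3A, read 153 and 179 in the controls and 150.5 and 132 with IL-1β on ILMN_1699574, and 147 and 175 against 149.9 and 153 on ILMN_1742547. NRP2, the coreceptor for VEGFC and SEMA3F, read 146 and 163 against 138 and 147 on ILMN_1787190 and 157 and 154 against 170.5 and 146 on ILMN_1910180. On ILMN_2274306 it read 156 and 156 against 151 and 123, and on ILMN_2376484 it read 152 and 166 against 161 and 174. The lowest detection p among the neuropilin probes was 0.0237, on IL-1β replicate 2 for ILMN_2376484. The other neuropilin detection p-values were 0.142 or higher, and no difference between the groups is given where neither was detected.

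Genes that act with these members were read by the tested probe with the highest mean and described by counts. None passed an adjusted p of 0.05 in limma as reported, as none of the 8862 named genes tested did (0%), and 9.4% of those genes were higher and 8.36% lower at an unadjusted p under 0.05. Of VEGF receptor signalling genes, 24 of 31 were named in the probe table and 20 were tested, with 9 higher, 11 lower and a median log2 difference of -0.03, beside 0.00 for all tested genes. At an unadjusted p under 0.05, 2 were higher and 2 lower. The sphingosine kinase SPHK1 was at 0.79 ± 0.19 (adjusted p = 0.146) and the kinase SRC at 0.34 ± 0.11 (0.201). The raw groups overlapped for both, as for the other higher genes named from these lists. SPHK1 was at 0.54 without IL-1β replicate 1 and at 1.06 without IL-1β replicate 2. The focal adhesion adaptor PXN was at -0.33 ± 0.11 (0.209) and the GTPase CDC42 at -0.31 ± 0.11 (0.244). SPHK1 passed with no background correction, at 0.42 (adjusted p = 0.0276), and with trend and robust variance (0.0206), and CDC42 with median scaling over all probes, at -0.56 (0.0437). That scaling put SRC at 0.09 and PXN at -0.54, PXN was at -0.15 with no background correction, and CDC42 was at -0.20 without IL-1β replicate 1. The list median was -0.24 with median scaling over all probes, 0.04 without IL-1β replicate 1 and 0.0026 without control replicate 2. The lymphatic ligand VEGFD was not detected on any array.

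Among the semaphorin and plexin genes, the other ligands and coreceptors of neuropilins, 12 of 13 were named in the probe table and 6 were tested, with a median of -0.02. PLXNA1, a plexin that pairs with neuropilins, was at 0.42 ± 0.10 (adjusted p = 0.149) and SEMA3E, a ligand of PLXND1, at 0.39 ± 0.13 (0.228). SEMA3C, a secreted semaphorin, was at -0.28 ± 0.11 (0.268). Without IL-1β replicate 1, SEMA3E was at 0.23 and SEMA3C at -0.18. With median scaling over all probes, PLXNA1 was at 0.19, SEMA3E at 0.15 and SEMA3C at -0.52 (adjusted p = 0.0466 for SEMA3C), and SEMA3E passed with trend and robust variance (0.0339). The list median was -0.24 with that scaling, 0.15 without control replicate 2 and 0.06 without IL-1β replicate 2. PLXND1, SEMA3F and 4 others were not detected on any array.

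Of the FGF2 receptor and heparan sulfate genes 8 of 14 were tested, 6 higher and 2 lower, with a median of 0.19. The receptor FGFR4 was at 0.62 ± 0.09, the lowest adjusted p of this list at 0.0920, from raw intensities of 222 and 239 in the controls and 251 and 233 with IL-1β. The syndecan SDC1, a heparan sulfate proteoglycan, was at 0.33 ± 0.10 (adjusted p = 0.191). The raw FGFR4 groups overlapped, and its difference was 0.25 with no background correction. Its control values lay close to the lowest detected intensities of those arrays, 214 and 234. With trend and robust variance its SE was 0.21. SDC1 was at 0.09 with median scaling over all probes and passed with trend and robust variance (adjusted p = 0.0494). FGFR1, a high-affinity FGF2 receptor, had no detected probe. The list median was -0.02 with median scaling over all probes and 0.12 in the authors' series matrix values.

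Hypoxia-inducible factors and the enzymes that control them, known regulators of VEGFA, numbered 7 tested of 12, with 4 higher, 3 lower and a median of 0.14. Their differences ran from -0.23 to 0.20, and 0 of 7 had an unadjusted p under 0.05. Leaving out 1 array put this median between 0.06 and 0.09, and no background correction put it at 0.07. Of 15 other angiogenic factors and inhibitors 9 were tested, with a median of 0.12, or 0.05 with no background correction. ANGPTL4, the lipoprotein lipase inhibitor, was at -1.19 ± 0.16 (adjusted p = 0.0871) and the vasodilator peptide ADM, a known hypoxia target, at -0.38 ± 0.11 (0.177). The ribonuclease ANG was at 0.39 ± 0.09 (0.142) and the thymidine phosphorylase TYMP at 0.32 ± 0.10 (0.191). ANGPTL4 passed under 5 alternatives, with adjusted p down to 0.00107, and was at -0.59 with no background correction. With median scaling over all probes ADM was at -0.61 and passed (adjusted p = 0.0426), while ANG was at 0.16 and TYMP at 0.09. ADM was at -0.23 with no background correction, and ANG passed with trend and robust variance (adjusted p = 0.0494). The angiopoietins ANGPT1 and ANGPT2 were not detected on any array. Median scaling over all probes put the hypoxia list at a median of -0.10 and the angiogenic list at -0.11, and the authors' series matrix values put them at 0.06 and 0.05.

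**Figure D5:**
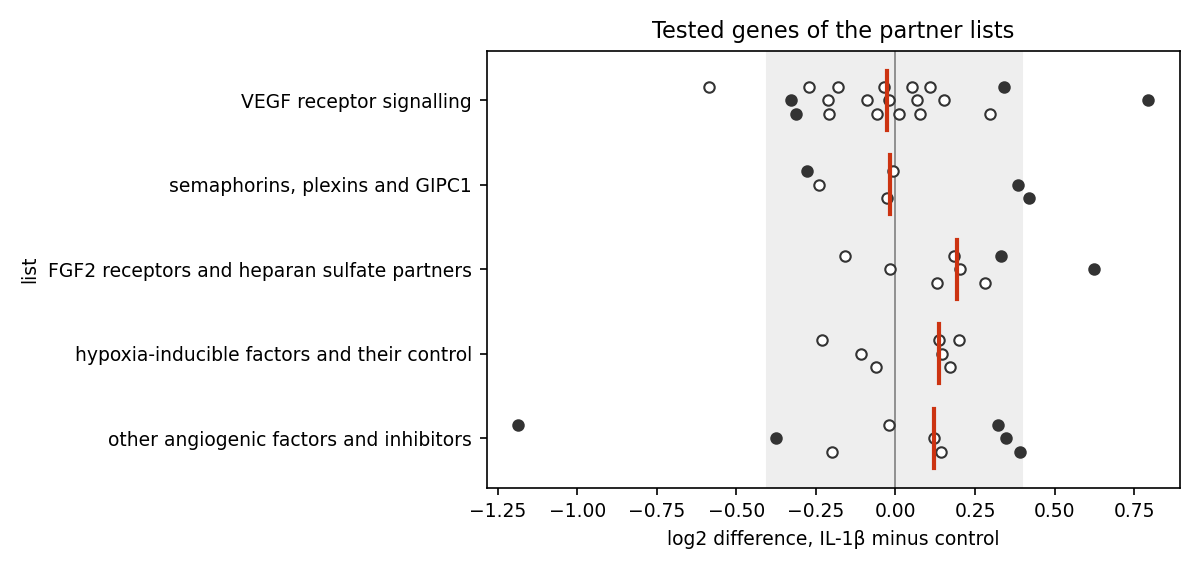
Log2 difference, IL-1β minus control, of each tested gene in 5 lists of genes that act with the members; filled points have an unadjusted p under 0.05, red bars are list medians and the grey band is the range from the lower to the upper 5% tail of all tested probes. Most genes lie inside the band, with ANGPTL4 at -1.19 and SPHK1 at 0.79 farthest out.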

How the data were processed

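The deposited raw probe intensities (linear, non-normalized per the file headers) and the detection p-values the authors deposited beside them were the starting point, with image software not given in the sources used here. Series matrix intensities, as the authors deposited them, are the raw ones less a constant and times a factor for each array, read from the values (column medians 8.92 to 10.9, means 322). The scale is linear, uncentred, without a comparison's direction. The authors' deposited averages are group means of scaled intensities, and their deposited score per gene has no stated formula.

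Intensities went through neqc of limma 3.58.1 in R 4.3.3 (background inferred from detection p-values, offset of 16, quantile normalization, log2). The test covered probes under a detection p of 0.01 on 2 arrays or more, by lmFit and eBayes, two-sided, adjusted by Benjamini and Hochberg. Differences between 2 probes of 1 gene were fitted the same way over all such pairs. The fits were tested on simulated data. Of 48803 probes, 27578 have 1 gene symbol and 13 several. Every member probe is named; of each list, up to 4 genes with the smallest p among those under 0.05 unadjusted. Members and lists were chosen with earlier results of these data known. Alternatives changed background, scaling, filter, variance model, block, arrays and probe averaging. The number of arrays limits precision.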

Additional observations from a re-analysis of the deposited data

How the results depend on the processing

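VEGFC, both detected VEGFA probes, FGF2 ILMN_2105919 and the VEGFB probe ILMN_1722855 kept their direction under all 16 alternatives. Those that changed only the filter, the variance model or the block leave the difference itself unchanged, so they could not turn a sign. The same holds for probe averaging with VEGFC, which has 1 probe. The count of member probes past an adjusted p of 0.05 was 0 as reported. It was 2 with no background correction and 2 with trend and robust settings (VEGFC and VEGFA ILMN_2375879, of 622 and 728 probes called in all). With median scaling over all probes it was 1 (VEGFC, of 919). In all, 91 probes were called with an offset of 50, 66 with detection on all 4 arrays and 10 with median scaling over tested probes. At an unadjusted p under 0.05, 3 member probes of 2 genes were higher as reported (1217 of all 13152 probes). They became 0 with median scaling over all probes (257 of all probes). They were also 0 with the authors' series matrix values (654). They were 1 with no filter (2107 of 48803, with 19 member probes), with detection p under 0.05 on 2 arrays (1379 of 17905) and with the replicate block (1013 of 13152). The 2 lower ones (1220 of 13152) stayed 2 with median scaling over all probes (4231 of 13152). They became 1 with no filter (2170 of 48803), with that detection limit (1332 of 17905) and with the block (1015 of 13152). With 1 array left out, 1 group holds a single array, so counts by unadjusted p are not given for those fits. With median scaling over all probes 1 of 7 member probes was higher with no overlap and 3 lower, beside 790 and 7872 of all 13152 probes. With no filter 5 of 19 member probes were higher and 4 lower with no overlap, beside 9793 and 9550 of all 48803 probes. With 1 array left out, a group of 1 array meets no overlap more easily, so counts of no overlap alone are not given for those fits. VEGFC was past 1.5-fold lower with no overlap with median scaling over all probes and in the series matrix values. Of all 13152 probes, 805 and 489 were so under these 2 settings, against 201 as reported. Without IL-1β replicate 1 the log2 difference of VEGFC was -0.65. FGF2 ILMN_1744693 turned to -0.11 with median scaling over all probes, -0.023 in the series matrix values and -0.12 averaged with its other probe; without 1 array it ran from -0.11 to 0.18. VEGFB ILMN_1726981 turned to 0.0092 with median scaling over tested probes and 0.16 averaged, and ran from -0.076 to 0.041 without 1 array. The VEGFA pair difference turned to 0.0018 with either median scaling and 0.010 in the series matrix values, and ran from -0.25 to 0.15 without 1 array. The causes were not tested. The labels do not say whether replicate numbers pair the samples. Deviations of same-numbered arrays correlated at -0.09 over 13152 probes, which with 2 arrays per group cannot decide this. Adjusted calls were 0 both as reported and with the block. Probes with an unadjusted p under 0.05 in limma were 2437 as reported and 2028 with the block. Depth here is signal over background, which limits VEGFA ILMN_1803882, FGF2 ILMN_1744693 and genes of the lists such as FGFR4. Series matrix values were floored at 16.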

Other observations

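Among 11231 tested probes of other named genes, the 5 whose 4-array profile lay closest to VEGFC, by Euclidean distance of the log2 deviations from each probe's own mean, were those of SLCO1B3 (0.0361), CCT5 (0.0441), ZNF561 (0.0468), DPH6 (0.0629) and SMC3 (0.0674). SLCO1B3 encodes an organic anion transporter, CCT5 a subunit of the cytosolic chaperonin and SMC3 a subunit of cohesin. Their log2 differences after IL-1β ran from -0.53 for CCT5 to -0.47 for ZNF561, beside -0.51 for VEGFC. The distance takes in the difference between the groups, so near-equal differences follow from the choice. With 4 arrays such likeness rests on few values and is given as a description.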
